A study of Arabidopsis thaliana with 15 samples.

Results

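AT1G29660 and AT4G28780, a pair of Arabidopsis thaliana genes for GDSL-type lipases, were followed across 5 groups of leaf samples. They were chosen by their lower array values under UV-B than in white light, so that fall is given here as a description with no test. Each was read by its single-gene probe set of highest mean, and each had only 1 such probe set. They are 2 of the 13356 genes that had a probe set of their own.

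The UV-B groups were hy5-1, uvr8-1 and wildtype, and the white light groups uvr8-1 and wildtype, all in the accession Landsberg erecta, with 3 Affymetrix ATH1 arrays labelled as biological replicates in each. The hy5-1 mutant lacks normal function of HY5, a bZIP transcription factor of light signalling, and uvr8-1 that of UVR8, a UV-B photoreceptor. Plants stood in compost for 3 weeks under continuous white light at 25 µmol m-2 s-1 and 21 °C, and the UV-B groups were then given UV-B at 3 µmol m-2 s-1 for 4 h. No hy5-1 plants in white light were used here, so the response of hy5-1 to UV-B has no value. Each mutant was a single allele, and the number of arrays limits the precision. By its title, the study concerned genes induced by UV-B in the wild type and in both mutants, and these 2 genes moved the other way.

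GDSL-type lipases and esterases are named for the residues around the active-site serine, which lies close to the start of the protein. They form a large plant family whose members act on acyl esters, and many are secreted to the cell wall. Some join hydroxy fatty acids into cutin, the polyester of the leaf cuticle, while others act in defence, pollen coats or seed oil. No substrate is assumed here for AT1G29660 or AT4G28780.

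AT1G29660 was high in white light and much lower under UV-B in both genotypes measured in both lights. All values below are log2 values made by the authors with RMA, which brings arrays to a common distribution and summarises each probe set. In wildtype the 3 arrays read 6.81, 7.14 and 6.39 under UV-B, against 10.08, 10.47 and 10.38 in white light. In uvr8-1 they read 6.72, 6.75 and 6.92 under UV-B, against 10.003, 10.02 and 9.91 in white light. The 3 hy5-1 arrays, all under UV-B, read 6.57, 6.65 and 6.46. Every UV-B array of every genotype thus lay below every white light array. The means were 6.78 ± 0.38 under UV-B and 10.31 ± 0.20 in white light in wildtype (SD, n = 3 each). The fitted difference was −3.53 ± 0.16 log2 units (standard error) in wildtype, an 11.5-fold lower level, and −3.18 ± 0.16 in uvr8-1, a 9.08-fold lower level.

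AT4G28780 showed the same order of light conditions. In wildtype its arrays read 4.41, 4.41 and 3.98 under UV-B, against 6.24, 7.03 and 7.01 in white light. In uvr8-1 they read 3.91, 4.01 and 3.84 under UV-B, against 6.59, 6.79 and 6.99 in white light. In hy5-1 under UV-B they read 3.58, 3.69 and 3.54. Here too no UV-B array reached a white light array. The fitted difference was −2.49 ± 0.19 in wildtype, 5.63-fold lower, and −2.87 ± 0.19 in uvr8-1, 7.31-fold lower. White light replicate 1 of wildtype was the lowest of its group, and without it the wildtype difference was −2.76. The equal readings of UV-B replicates 1 and 2 were not peculiar to this gene, since between 52 and 189 of the 22746 probe sets had values equal in every deposited digit in any pair of arrays.

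**Figure D1:**
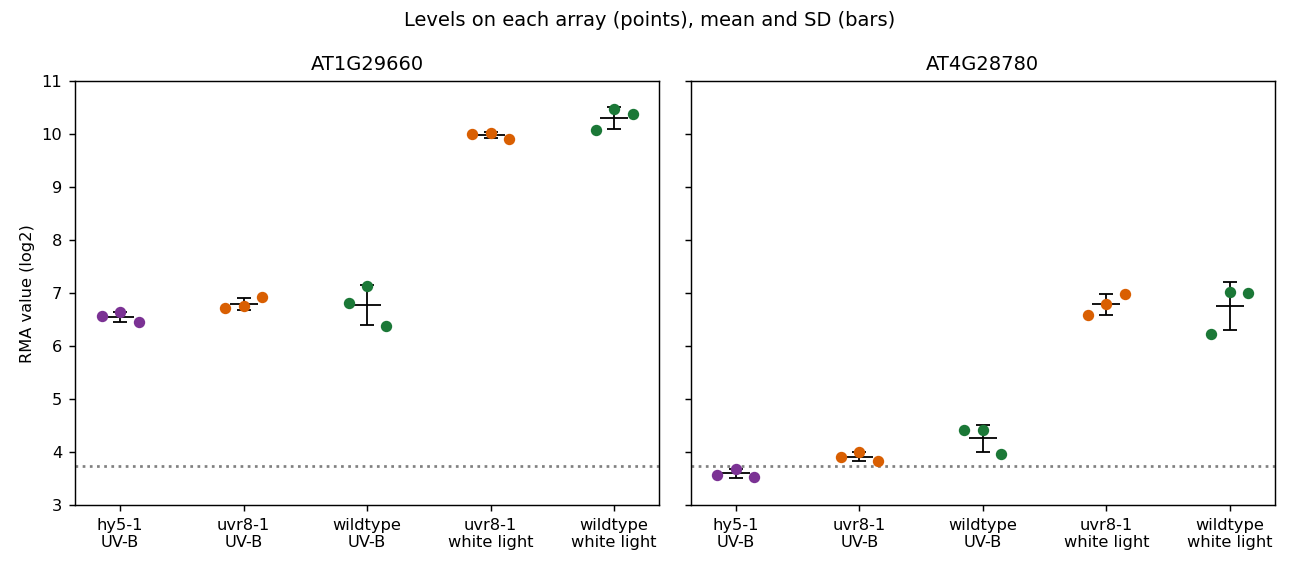
Level (log2 RMA value) of AT1G29660 (left) and AT4G28780 (right) on each of the 15 arrays, as points for the 3 arrays of each group with the group mean and SD as bars; the dotted line marks 3.74, below which the dimmest 40% of probe sets had their mean. The UV-B groups sit between 6.39 and 7.14 for AT1G29660 and between 3.54 and 4.41 for AT4G28780, below all white light arrays of the same gene.

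Both genes were among those called lower under UV-B in wildtype and in uvr8-1. A call meant an adjusted p under 0.05 in a limma fit to all 15 arrays, with Benjamini-Hochberg adjustment over all probe sets. Over all genes 27.3% were called in wildtype and 28.3% in uvr8-1, of which 16.5% and 16.8% of all genes were lower, and since the fall chose the members nothing is read from their own calls. Of the 13356 genes, AT1G29660 had the 3rd lowest difference in wildtype and the 4th lowest in uvr8-1, and AT4G28780 the 31st and the 10th.

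The dim end of the scale bears on AT4G28780. The dimmest 40% of probe sets had a mean under 3.74, and all 3 hy5-1 arrays of AT4G28780 lay under that limit. The uvr8-1 UV-B arrays, at 3.84 to 4.01, and the wildtype UV-B arrays, at 3.98 to 4.41, lay just above it. Differences that end near this limit can be understated, though it is not a measured floor and values ran down to 1.99. AT1G29660 stayed well above the limit on every array.

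The UV-B response was not called different without UVR8 for either gene, by limma over all probe sets. Neither gene had an unadjusted p under 0.05 for the difference of responses, and 0.644% of all genes were called, 0.0225% with the higher and 0.621% with the lower value in uvr8-1. For AT1G29660 the uvr8-1 response minus the wildtype response was 0.35 ± 0.23, a smaller fall in uvr8-1, with a 95% confidence interval from −0.14 to 0.83 (adjusted p = 0.901). For AT4G28780 it was −0.38 ± 0.27, a larger fall in uvr8-1, with an interval from −0.96 to 0.21 (adjusted p = 0.939). Differences of up to 0.83 and 0.96 log2 units are therefore within these intervals. The members were picked partly for their fall in uvr8-1, which is 1 side of this difference.

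Levels were then compared between uvr8-1 and wildtype in the same light. Under UV-B, AT1G29660 averaged 6.80 ± 0.11 in uvr8-1 and 6.78 ± 0.38 in wildtype, a difference of 0.02 ± 0.16 (interval −0.33 to 0.36, adjusted p = 0.997 by limma), and the groups overlapped. AT4G28780 averaged 3.92 ± 0.08 in uvr8-1 and 4.27 ± 0.25 in wildtype, a difference of −0.35 ± 0.19 (interval −0.76 to 0.07, adjusted p = 0.555), also with overlap. Neither was called, against 2.07% of all genes (0.397% higher and 1.67% lower in uvr8-1). In white light, AT1G29660 averaged 9.98 ± 0.06 in uvr8-1 and 10.31 ± 0.20 in wildtype. These groups did not overlap, but the difference of −0.33 ± 0.16 did not pass (unadjusted p = 0.0604, adjusted p = 1.00 by limma). AT4G28780 averaged 6.79 ± 0.20 in uvr8-1 and 6.76 ± 0.45 in wildtype, with a difference of 0.03 ± 0.19 and an interval from −0.39 to 0.45. In white light 0.00749% of all genes were called, so few differences of any kind passed there.

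The hy5-1 arrays served to ask whether HY5 bears on the level under UV-B. AT1G29660 averaged 6.56 ± 0.09 in hy5-1, at −0.22 ± 0.16 against wildtype (interval −0.56 to 0.13, adjusted p = 0.425 by limma) and −0.24 ± 0.16 against uvr8-1 (interval −0.58 to 0.11, adjusted p = 0.343). AT4G28780 averaged 3.60 ± 0.08 in hy5-1, the lowest of its 5 group means. Its difference was −0.66 ± 0.19 against wildtype (interval −1.08 to −0.25), and all 3 hy5-1 arrays lay below all 3 wildtype arrays. It did not pass (unadjusted p = 0.00431, adjusted p = 0.0539 by limma). Against uvr8-1 the difference was −0.32 ± 0.19 (adjusted p = 0.291), again with no overlap between the arrays. Neither gene was called in either comparison, against 6.74% of all genes for hy5-1 and wildtype and 12.1% for hy5-1 and uvr8-1.

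The value of AT4G28780 against wildtype lay at the threshold. The adjusted p was 0.0184 after quantile normalisation and 0.0467 without dim probe sets, 0.0414 without wildtype UV-B replicate 3, and 0.999 when a 3′ to 5′ index was added to the model, where the difference itself was −0.63. That index is the mean difference between 3′ and 5′ control probe sets of GAPDH, ubiquitin and actin, a measure of how evenly transcripts were represented. It was 2.78 ± 0.32 in hy5-1, against 1.93 ± 0.02 in uvr8-1 and 1.88 ± 0.10 in wildtype under UV-B (SD, n = 3 each). In white light it was 2.18 ± 0.16 in uvr8-1 and 1.83 ± 0.04 in wildtype, without overlap. Over 8 other settings of the fit, the index among them, AT1G29660 differed between these white light groups by −0.44 to −0.27. Its uvr8-1 response to UV-B ran from −3.24 to −3.10 there, and that of AT4G28780 from −2.88 to −2.85. With the index as covariate the comparison of hy5-1 with wildtype called 2 probe sets, against 1726 without it, so index and genotype cannot be told apart there. The guard cell marker FMA was also lower in hy5-1 than in wildtype under UV-B (−0.55, adjusted p = 0.0475), and the part of either in the value of AT4G28780 was not tested.

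**Figure D2:**
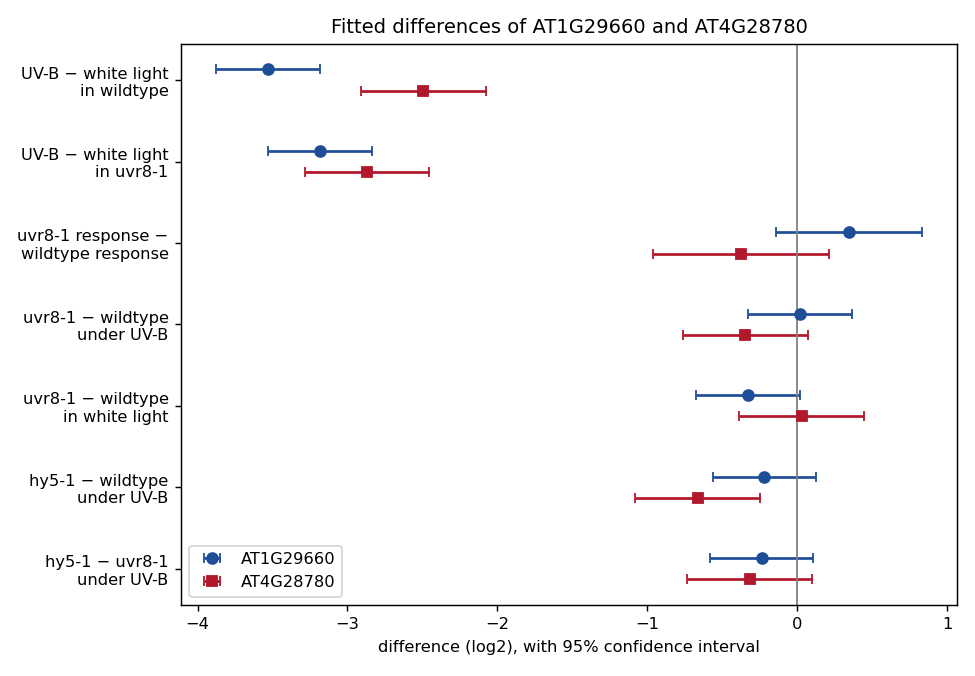
Fitted differences in log2 units (horizontal axis) with 95% confidence intervals for AT1G29660 (circles) and AT4G28780 (squares) in the 7 comparisons down the page. The UV-B minus white light differences lie between −3.53 and −2.49, while the other 5 comparisons lie between −0.66 and 0.35.

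Put in order, the group means of AT1G29660 were 6.56 in hy5-1, 6.78 in wildtype and 6.80 in uvr8-1 under UV-B, then 9.98 in uvr8-1 and 10.31 in wildtype in white light. For AT4G28780 the order was 3.60 in hy5-1, 3.92 in uvr8-1 and 4.27 in wildtype under UV-B, then 6.76 in wildtype and 6.79 in uvr8-1 in white light. Of the neighbours in either order, those on the 2 sides of the change of light stood furthest apart. The white light groups for AT1G29660, and hy5-1 and uvr8-1 for AT4G28780, did not overlap but had intervals that include 0, and the other neighbours overlapped. Within UV-B, the levels of the genes over the 9 arrays had a Pearson r of 0.651 (exact permutation p = 0.0566, 2-sided, 0.113 adjusted over the 2 lights) and a Spearman rho of 0.603 (exact permutation p = 0.0922, 0.184 adjusted). Without the 2 arrays farthest from the median of AT1G29660 the r was 0.677. The permutations exchanged arrays across genotypes and replicate numbers, and hy5-1 had the lowest mean of both genes. The p values therefore do not separate a relation of the genes from differences between genotypes or replicates. Over the 6 white light arrays r was 0.419 (exact permutation p = 0.424, 0.424 adjusted) and rho 0.486 (exact permutation p = 0.356, 0.356 adjusted). The r became −0.889 without the 2 farthest arrays. With so few arrays these values cannot tell whether the genes were related in white light.

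A direct neighbour of AT1G29660 is AT1G29670, which follows it directly on the chromosome in the RefSeq gene table (assembly TAIR10.1) and belongs to the same lipase family. In wildtype AT1G29670 read 8.59, 9.09 and 8.41 under UV-B, against 10.20, 10.46 and 10.40 in white light. It fell by 1.66 in wildtype (adjusted p = 2.37e-05 by limma) and by 1.26 in uvr8-1 (adjusted p = 0.000212). Its UV-B arrays all lay below its white light arrays in both genotypes, and both differences were nearer 0 than those of AT1G29660. Sharing of probes between these neighbours was not examined, since no probe sequence was used here. On the other side lies AT1G29650, a pseudogene, at 3.62 ± 0.18 under UV-B and 3.41 ± 0.17 in white light in wildtype, which did not pass (adjusted p = 0.39). The RefSeq neighbours of AT4G28780 had no single-gene probe set.

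Other GDSL-type genes moved down with UV-B as well, though by less. From a list of 107 family genes, 70 had a single-gene probe set. Besides the 2 members, 19 of 68 were called lower and 1 higher in wildtype under UV-B, with a median difference of −0.07, beside −0.03 over all genes. In uvr8-1, 18 were called lower and 1 higher, with medians of −0.12 in the list and −0.03 over all genes. The shares lower, 27.9% and 26.5%, stand beside the 16.5% and 16.8% of all genes, and those higher, 1.47% in each genotype, beside 10.8% and 11.4%. Members included, 18 genes fell in both genotypes, 1 rose in both and none was called in opposite directions. These are 25.7% and 1.43% of the family, beside 12.4% and 8.42% of all genes called lower in both and higher in both.

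Much of the family was dim in leaves: 42 of the 70 genes had a mean over all arrays below 3.74. Of the 26 above it other than the members, 69.2% were called lower and 3.85% higher in wildtype (median −0.83). Over all genes above it these were 27.6% and 18.6% (median −0.14). In uvr8-1 they were 61.5% and 3.85% (median −0.97), beside 27.9% and 19.3% (median −0.11). Of the 42 below it, 2.38% were lower in wildtype and 4.76% in uvr8-1, beside 3.44% and 3.74% of all genes below it. The limit applies to the mean over all arrays, so a gene can pass it by its white light values alone. Such passing favours calls of lower, in the family and over all genes. AT4G26790, AT1G28610 and AT1G28570, all called lower in both genotypes, were above that limit on average and below it under UV-B in wildtype and uvr8-1. Their differences can be understated. AT1G28610 and AT1G28570 were named after their values were seen.

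Among the family genes with the smallest p, AT1G33811 differed by −2.07 in wildtype and −2.01 in uvr8-1. AT5G45950 differed by −1.80 and −2.36, and AT3G16370 by −1.56 and −1.61. AT4G26790 differed by −1.07 in wildtype and was 2.82-fold lower in uvr8-1, averaging 3.59 and 3.34 under UV-B. All 4 were called in both genotypes, with adjusted p from 1.57e-06 to 0.000434 by limma. No family gene fell as far as AT4G28780 or AT1G29660, which held the 2nd and 1st places of 70 in both genotypes, a consequence of how they were chosen.

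AT1G28600 went the other way. In wildtype it read 8.92, 8.66 and 8.54 under UV-B, against 6.77, 7.14 and 6.89 in white light, a rise of 1.78 ± 0.13 (adjusted p = 4.96e-07 by limma). It rose by 1.26 ± 0.13 in uvr8-1 (adjusted p = 9.09e-06). AT5G03610, named after its values were seen, was at 1.21 ± 0.50 in wildtype and 1.37 ± 0.50 in uvr8-1 and did not pass (adjusted p = 0.09 and 0.0533). In a paired fit, with the replicate number as a block and hy5-1 left out, its adjusted p was 0.0359 and 0.0201, which makes the count of family genes called higher 2 in each genotype, beside 12.3% and 13.3% of all genes in that fit.

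**Figure D3:**
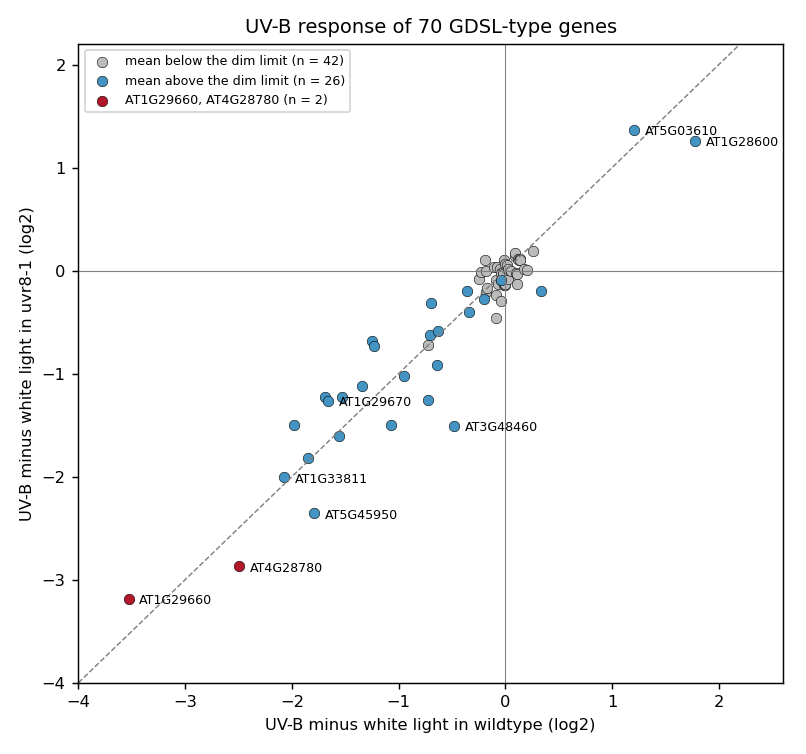
UV-B minus white light difference (log2) in wildtype (horizontal) and in uvr8-1 (vertical) for the 70 GDSL-type genes measured, with 42 genes of mean below 3.74 in grey, 26 above it in blue and the 2 members in red; the dashed line marks equal responses. Most grey genes gather near 0, most blue genes lie below 0 on both axes, and AT1G28600 and AT5G03610 lie above 0 on both.

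No GDSL-type gene of 70 was called for the difference of responses between uvr8-1 and wildtype by limma. At an unadjusted p under 0.05, 4 had the lower and 0 the higher value in uvr8-1, beside 523 and 322 of all 13356 genes. Under UV-B, 2 of 70 were called lower in uvr8-1 than in wildtype, and 1.67% of all genes. AT3G48460, also named SFAR4 for seed fatty acid reducer, read 4.74, 4.23 and 4.07 in uvr8-1, against 6.19, 5.72 and 4.91 in wildtype (−1.25 ± 0.30, adjusted p = 0.0453). AT1G28600 was lower by −0.53 ± 0.13 (adjusted p = 0.0493). Both calls rest on few arrays: the count was 0 without wildtype UV-B replicate 1 or 2 or uvr8-1 UV-B replicate 2, 1 without uvr8-1 UV-B replicate 1 or 3, and 4 without wildtype UV-B replicate 3. The paired fit changed which genes were called: AT1G28600 no longer passed (adjusted p = 0.0938), while AT3G48460 (0.0293) and AT5G45950 (−0.69, 0.0445) did, beside 1.89% of all genes. In white light 0 of 70 were called by limma, and 0 had an unadjusted p under 0.05, beside 143 genes higher and 74 lower of all 13356.

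In hy5-1 the other family genes that were called were higher, unlike the values of the 2 members. Against wildtype 4 of 70 were called higher and 0 lower under UV-B, beside 2.67% higher and 4.07% lower of all genes. At an unadjusted p under 0.05, 10 were higher and 2 lower, beside 1713 and 1431 of all 13356 genes. The 2 lower were AT4G28780 and AT5G45950 (−0.47, unadjusted p = 0.0321 by limma). The 4 called were AT2G27360 (0.55 ± 0.11), AT3G50400 (0.45 ± 0.10), AT5G55050 (0.94 ± 0.23) and AT5G37690 (0.66 ± 0.18), with adjusted p between 0.0145 and 0.0431 by limma. All but AT2G27360 had a mean below 3.74, and over all genes below that limit the median difference was 0.10. The count was 2 without wildtype UV-B replicate 2 or hy5-1 UV-B replicate 2, 1 without wildtype UV-B replicate 3, 0 without hy5-1 UV-B replicate 1, and 0 when the 3′ to 5′ index was added. Against uvr8-1, 10 of 70 were called higher and 0 lower, beside 4.87% and 7.2% of all genes. At an unadjusted p under 0.05 these were 19 and 1, beside 1848 and 1855 of all 13356 genes. Of the 10 called, 5 had a mean below 3.74. Over all genes below that limit the median difference was 0.11, with 4.08% called higher and 0.604% lower. AT3G48460 (1.82 ± 0.30) and AT1G28600 (0.73 ± 0.13), both above the limit, were among the 10 called. This count was 3 without uvr8-1 UV-B replicate 3, and 4 without uvr8-1 UV-B replicate 2, hy5-1 UV-B replicate 1 or hy5-1 UV-B replicate 2. It was 0 when the 3′ to 5′ index was added, with AT3G48460 then at 1.43 (adjusted p = 0.905) and AT1G28600 at 0.74 (adjusted p = 0.836).

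Few cuticle genes could be read. Of 44 genes for cutin, wax, their transport and their control, 4 had a single-gene probe set. AT5G61590, which encodes DEWAX, a repressor of wax genes, differed by −2.08 in wildtype (adjusted p = 0.00035 by limma) and −1.71 in uvr8-1 (adjusted p = 0.00145), lower in both. WSD1, a wax ester synthase gene, fell by 0.45 in uvr8-1 (adjusted p = 0.0471), with all values below 3.74, and was at −0.21 in wildtype. That call ended without either uvr8-1 white light replicate 2 or 3 or uvr8-1 UV-B replicate 2 or 3, with adjusted p up to 0.214. AT5G33370, a GDSL-type cutin synthase gene, was at −0.64 ± 0.34 in wildtype and −0.92 ± 0.34 in uvr8-1 (adjusted p = 0.196 and 0.0585). In the paired fit these became 0.0323 and 0.00568, so that 2 of 4 cuticle genes in wildtype and 3 of 4 in uvr8-1 were then lower, beside 19.4% and 19.5% of all genes in that fit. SHN3, a regulator of the cuticle, was at −0.07 and −0.13. In the other 5 comparisons 0 of the 4 were called by limma or had an unadjusted p under 0.05.

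The tissue label was checked on the markers that could be read. RCA, which activates Rubisco, averaged 12.25 to 12.47 in the 5 groups, and the antenna gene LHCB4.2 averaged 8.62 to 9.38 under UV-B and 10.86 to 10.96 in white light, and was called lower under UV-B in both genotypes. The guard cell gene FMA averaged 5.14 to 5.69 under UV-B and 5.87 to 6.08 in white light, and the trichome gene TRY 3.69 to 3.98 and 4.01 to 4.03. FMA was lower under UV-B in uvr8-1 by −0.43 (adjusted p = 0.0457 by limma), and the root marker PYK10 by −0.76 (adjusted p = 0.0201). In wildtype FMA was at −0.39 (adjusted p = 0.0734) and PYK10 at −0.45 (adjusted p = 0.177), neither called. The part of either in the fall of the 2 lipase genes was not tested. PYK10 averaged 6.88 to 7.59 under UV-B and 8.03 to 8.17 in white light, and the root marker AT3G01260 2.76 to 3.01 over all groups. By mean percentile on the array PYK10 stood at 82.1 to 91.9 and AT3G01260 at 11.6 to 17.6. The 2 root markers thus differed, and an absence of root tissue was not shown. No listed marker of epidermis, vascular tissue, flower or seed had a single-gene probe set, so the share of epidermis, where cuticle lipids are made, was not measured. In whole leaves fewer cells of a type and less RNA per cell cannot be told apart.

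Genes most like each member were sought by the Pearson r of the values over the 15 arrays, as a description. The 5 most like AT1G29660 were AT5G62360 (r = 0.990), AT3G60320 (0.988), AT4G38690 (0.986), AT1G15260 (0.986) and AT4G28780 itself (0.985). AT5G62360 resembles inhibitors of pectin methylesterase and AT4G38690 phospholipase C. For AT4G28780 they were AT4G37080 (0.991), AT3G07310 (0.986), SNZ (AT2G39250), which encodes a repressor of flowering (0.986), AT4G01460, which encodes a bHLH protein (0.986), and AT1G29660 (0.985). Each member was thus the 5th most like gene of the other among 13355, but both were chosen for their fall under UV-B. By Spearman rho AT4G28780 ranked 67 for AT1G29660, and AT1G29660 ranked 176.5 for AT4G28780. The arrays fall into a UV-B and a white light cluster, so r mostly reflects the step between lights. By Spearman rho 0 of the 5 were shared for either member.

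AT4G37080, the gene most like AT4G28780, was likewise lowest in hy5-1. In wildtype it averaged 5.19 ± 0.17 under UV-B and 7.74 ± 0.27 in white light, a difference of −2.55, and in uvr8-1 the difference was −2.74. In hy5-1 it averaged 4.34 ± 0.11, lower than in wildtype under UV-B by −0.85 ± 0.14 (adjusted p = 0.00474 by limma). When the 3′ to 5′ index was added this became −0.39 (adjusted p = 0.999). AT4G38690 differed by −3.35 in wildtype and −2.91 in uvr8-1, the values nearest to those of AT1G29660 among the 5 genes most like it. AT5G62360 differed by −2.05 and −2.08 and averaged 3.35 to 3.49 under UV-B, below the limit of 3.74.

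**Figure D4:**
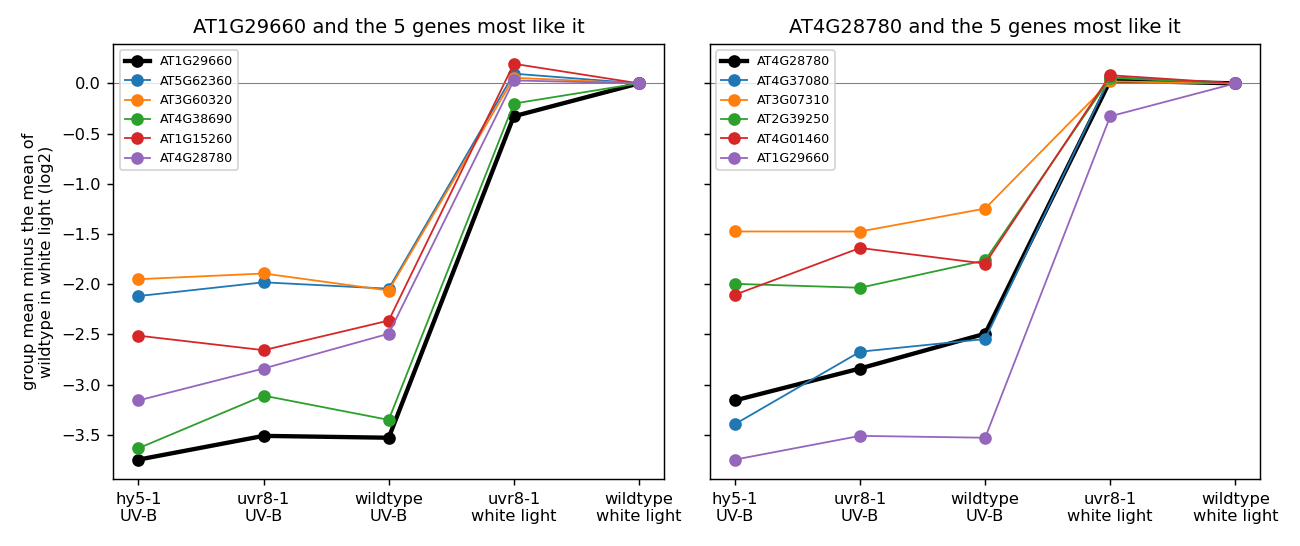
Group mean minus the mean of wildtype in white light (log2) for AT1G29660 (left, black) and AT4G28780 (right, black) with the 5 genes most like each in colour, over the 5 groups on the horizontal axis. In uvr8-1 in white light AT1G29660 lies lowest, at −0.33, and all curves lie more than 1 log2 unit below 0 in the 3 UV-B groups.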

How the data were processed

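The authors deposited log2 values made with RMA, per the submitters' processing notes. The RMA version and the arrays processed together were not stated. The table held 22810 probe sets on 15 arrays. Without 64 control probe sets, 22746 were tested, unfiltered and with no further normalisation. Values ran from 1.99 to 13.1, and array medians from 4.31 to 4.40. Probe sets were paired with genes through the platform annotation, which gave 13513 probe sets 1 gene, 503 several and 8730 none, and 13436 of the 13513 matched the RefSeq table of assembly TAIR10.1. Coordinates were left out because the array's build is unstated, and no sequence was used.

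Groups were taken from the sample titles. limma 3.58.1 in R 4.3.3 fitted 1 mean per group to all 15 arrays (10 residual and 3.09 prior degrees of freedom) for 7 contrasts, with 2-sided moderated tests, and was tested on simulated data. Errors after a difference are standard errors, those after a mean SDs. Equally numbered arrays of the wildtype and uvr8-1 groups deviated together (r from 0.104 to 0.684 over 18 pairs, found in the data), but not those of hy5-1 (from −0.148 to 0.197). The replicate block was therefore also fitted to the 12 wildtype and uvr8-1 arrays, an alternative chosen after seeing the data.

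The members and lists were chosen with earlier results of these data known. RefSeq names 9 genes GDSL, of which 0 had a single-gene probe set. The family list of 107 gene codes was therefore written from knowledge of the family, after the annotation and before its values were read. Named genes are the members, their chromosomal neighbours, up to 5 called genes of smallest p per list and contrast, and the 5 most like genes. Naming by protein identity was not run for lack of sequences. Fixed markers were of mesophyll, epidermis, trichome, guard cell, vascular, root, flower and seed. Plots used matplotlib 3.10.9 in Python 3.11.15.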

Additional observations from a re-analysis of the deposited data

How the results depend on the processing

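With 3 arrays a group and no detection calls, small differences of dim genes are the least certain values. The falls of AT1G29660 and AT4G28780 under UV-B kept their direction in all alternatives and moved by more than the spread between arrays in 1 of them. They ran from −3.71 to −3.33 (AT1G29660, wildtype), −2.76 to −2.35 (AT4G28780, wildtype), −3.25 to −3.14 and −2.97 to −2.77 (uvr8-1) when each array was left out. Neither gene was called in the difference of responses or between uvr8-1 and wildtype in any alternative. AT4G28780 in hy5-1 against wildtype was called with the replicate block (−0.66, adjusted p = 0.038), median centring (−0.65, 0.0491) and quantile normalisation (−0.75, 0.0184). It was also called without dim probe sets (−0.66, 0.0467). When each array was left out it ranged from −0.81 to −0.59, with adjusted p from 0.0414 to 0.167. Since hy5-1 arrays did not deviate with equally numbered arrays, the block over 15 arrays is not matched to the hy5-1 comparisons. The replicate block over 12 arrays left 32 of 35 results within the same call or within 1.5 times the count. The exceptions were 2 family genes higher in each genotype and 2 cuticle genes lower in wildtype, as also with all 15 arrays. Of the 2 family genes lower in uvr8-1 than in wildtype under UV-B, AT1G28600 was replaced by AT5G45950 in that fit.

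Other counts moved as follows, and the cause was not tested. Family genes higher under UV-B in uvr8-1 were 2 with median centring, with an intensity trend and without dim probe sets, and 1 to 2 in either genotype when each array was left out. Cuticle genes lower in uvr8-1 were 1 with quantile normalisation and in a fit of only the groups compared, and 1 to 3 with each array left out. Family genes lower in uvr8-1 than in wildtype under UV-B were 1 with quantile normalisation, an intensity trend or no dim probe sets, 0 with the 3′ to 5′ index or only the groups compared, and 0 to 4 with each array left out. For hy5-1 against wildtype, family genes lower were 1 (AT4G28780) with the replicate block, either normalisation or no dim probe sets, and 0 to 2 with each array left out. Those higher were 1 without dim probe sets, 0 with the index, 2 in a fit of only the groups compared and 0 to 4 with each array left out. For hy5-1 against uvr8-1, those higher were 5, 0 and 6 in these 3 settings and 3 to 8 with each array left out, and 1 was lower with only the groups compared. Probe sets called for the difference of responses were 195, and 129 with the index and 132 to 334 with each array left out. Those for uvr8-1 against wildtype under UV-B were 549, 213 with only the groups compared and 350 to 884. In white light they were 4, 2 with the index and 0 with only the groups compared. For hy5-1 against wildtype they were 1726, and 2857 with the block, 2 with the index, 787 with only the groups compared and 550 to 2013. For hy5-1 against uvr8-1 they were 3148, and 8, 2093 and 1493 to 3175. Of 626 recomputed values of 21 other named genes, 563 kept their call, 61 lost it and 2 changed sign, both AT5G55050 in hy5-1 with the index, at −0.42 against wildtype and −0.37 against uvr8-1. By Spearman rho 0 of the 5 most like genes of either member were shared. No other probe set was paired with either member, so that alternative was not run.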
